A study of Homo sapiens with 6 samples.

Results

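The genes described here are 50 genes of the lysosome, the acidic organelle in which cells break down protein, glycan, lipid and nucleic acid. They were taken by symbol from a table of 29908 Ensembl genes and comprised 5 lysosomal membrane proteins, 11 proteases, 14 glycosidases and sulfatases, 9 lipid hydrolases and luminal cofactors, 8 subunits or accessory proteins of the vacuolar proton pump (V-ATPase) and 3 genes of regulation and sorting. All 50 were in the table, and all 50 passed the filter on low values, a mean of at least 0.5 FPKM (a read count scaled to the length of the exons and the size of the library) over the 6 libraries. RNA was sequenced from Hep3B, an established line of human hepatocellular carcinoma cells. Hep3B-Con cells (3 libraries) received a control lentivirus and Hep3B-KD cells (3 libraries) a lentivirus carrying a short hairpin RNA against DAGLA, which encodes diacylglycerol lipase alpha. Both lines had been infected at a multiplicity of infection of 5, and stable knockdown cells were kept by puromycin selection. The knockdown line rested on 1 hairpin, so that the loss of DAGLA, the hairpin itself and the selection of the line cannot be told apart. Nothing in the sample records says that the 3 libraries of a group came from separate cultures, and the p-values then measure only the spread between these libraries.

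Most soluble lysosomal enzymes are made in the endoplasmic reticulum, receive a mannose 6-phosphate tag in the Golgi apparatus and are carried to the lysosome by mannose 6-phosphate receptors. The V-ATPase pumps protons into the organelle, because the hydrolases work at acidic pH. Many lysosomal genes share a promoter motif with the palindrome CACGTG at its core, to which transcription factors of the MiT/TFE family such as TFEB and TFE3 bind. In hepatocytes the lysosome turns over glycogen, lipoprotein cholesterol, glycoproteins and worn-out organelles.

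The reads counted on the genes of the table numbered between 15861039 and 17572714 a library. DAGLA (ENSG00000134780; GENCODE 29 on GRCh38: chromosome 11, 61680433 to 61747001, plus strand) measured 9.42, 9.40 and 9.02 FPKM in the 3 Hep3B-Con libraries and 4.62, 4.46 and 4.78 FPKM in the 3 Hep3B-KD libraries. All Hep3B-KD values were below all Hep3B-Con values (log2 fold change -0.99, standard error 0.0441, adjusted p = 5.25e-06). By an exact, two-sided permutation of the libraries the p was 0.1, which is the lower limit for 3 against 3. Adjusted p-values are those of limma on log2(FPKM + 0.1), with Benjamini-Hochberg adjustment over the 14221 genes tested, and fold changes were taken from Hep3B-Con to Hep3B-KD on the same log scale, where changes of low genes come out too small. By their median the genes tested had a log2 fold change of 0.11, which became 0.0059 after each library was centred on its median log ratio, so that small rises are given relative to this shift where it matters. Of 10 hepatocyte markers 10 were expressed, with a summed level of 2789 to 2834 FPKM in Hep3B-Con and 4605 to 4632 FPKM in Hep3B-KD. This sum was mostly ALB, which reached 3323 FPKM. By the adjusted p 8 of the markers were higher and 2 lower, FGB (log2 fold change -0.96) and HNF4A (-0.35). Markers of macrophages, which are rich in lysosomes, were at or near 0. Of 10 such markers 4 were listed, the highest being CD14 at 1.28 FPKM, and their summed level was 0.8 to 1.5 FPKM in Hep3B-Con and 0.898 to 1.46 FPKM in Hep3B-KD. The summed level of 6 fibroblast and stellate markers was 9.28 to 10.2 FPKM in Hep3B-Con and 5.48 to 5.96 FPKM in Hep3B-KD. All 4 endothelial markers were listed, none above 0.385 FPKM, with sums of 0.194 to 0.217 FPKM in Hep3B-Con and 0.278 to 0.385 FPKM in Hep3B-KD. Mitochondrially encoded genes made up 17.01% to 17.2% of the FPKM sum in Hep3B-Con and 18.6% to 18.9% in Hep3B-KD. The part of these shifts in the results below was not tested.

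Of the 50 lysosomal genes, 41 passed the threshold of 0.05 on the adjusted p, 29 of them higher in Hep3B-KD and 12 lower, and 9 did not pass. Over all genes tested 59.9% passed, 36.1% higher and 23.8% lower. A fold change of at least 2 was reached by 0 lysosomal genes in the upward direction, against 5.89% of all genes, and by 1 gene, the sialidase NEU1, in the downward direction, against 2.94%. The median log2 fold change of the 50 was 0.17, against 0.11 for all genes tested. With the libraries centred on their median, 19 were higher and 16 lower, against 28.6% and 30.3% of all genes, and the median was 0.07. CTSO, ARSA, ATP6V0E1 and TFEB were the genes that passed as lower only after this centring. With quantile normalization 26 were higher and 14 lower (30% and 27.4% of all genes), and with limma's voom on the recovered reads 23 were higher and 15 lower (30.6% and 31.3%, or 8800 of 14221 genes). In 30 genes every Hep3B-KD value was above every Hep3B-Con value, and in 12 genes every Hep3B-KD value was below. Over all genes these shares were 40.7% and 26.3%. Changes were small for most: 33 of the 41 genes that passed lay within 1.5-fold, 6 rose and 2 fell by at least 1.5-fold. The libraries of a group differed little, with a median coefficient of variation over the 50 genes of 2.98% in Hep3B-Con and 3.24% in Hep3B-KD. In bulk RNA, a lower level in every cell and fewer cells that express the gene cannot be told apart.

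**Figure D1:**
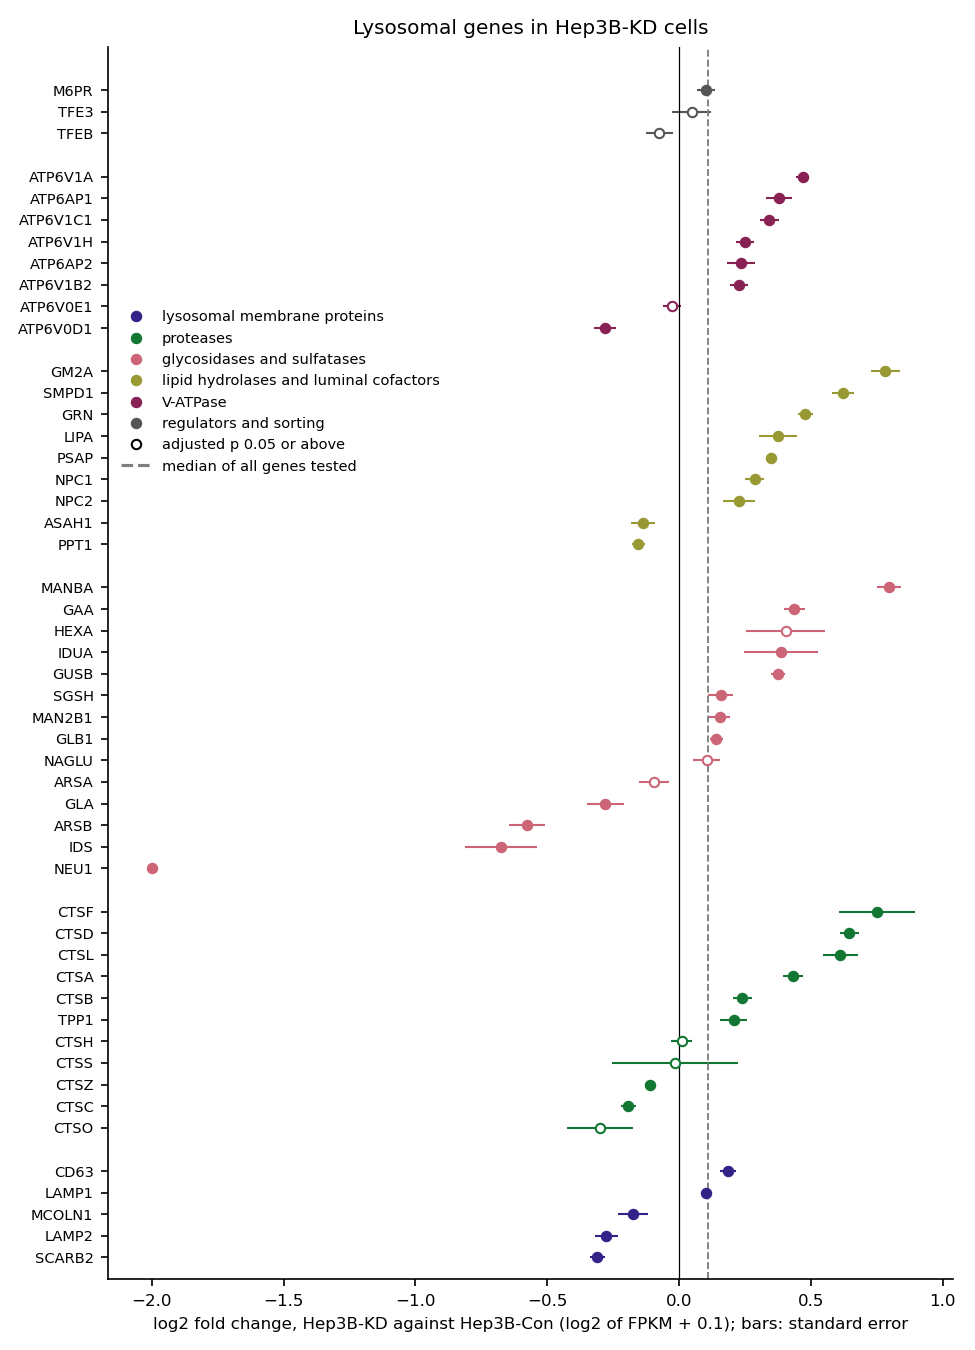
Log2 fold change (Hep3B-KD against Hep3B-Con, on log2 of FPKM + 0.1) of each of the 50 lysosomal genes, grouped by role. Points are limma estimates, bars are standard errors, filled points have an adjusted p under 0.05, and the dashed line marks the median of all genes tested, 0.11. NEU1 stands alone at -1.999, while the other 49 genes lie between -0.68 and 0.80. With the libraries centred on their median LAMP1, M6PR, CTSH and TFE3 turned from above to below 0.

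The 50 genes spanned a wide range of levels, from 0.769 FPKM (HEXA) to 244 FPKM (PSAP) in Hep3B-Con. Their median level was 13.1 FPKM, against 4.61 FPKM for all genes tested. The order by FPKM, which is per length of gene, began with PSAP, LAMP1, CD63, CTSZ and NEU1 in Hep3B-Con. CTSZ at 91.9 ± 1.20 FPKM (mean ± SD, n = 3) and NEU1 at 88.7 ± 1.38 FPKM lay close together in that order. In Hep3B-KD the first 4 places were held as before, and NEU1 had moved from rank 5 to rank 19 of 50. The summed FPKM of the 50 genes was 1332, 1337 and 1341 in the Hep3B-Con libraries and 1462, 1457 and 1477 in the Hep3B-KD libraries. All Hep3B-KD sums were the higher. Of the reads counted on genes in a library, the 50 genes took 0.601% to 0.604% in Hep3B-Con and 0.639% to 0.647% in Hep3B-KD.

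The sialidase NEU1, which removes terminal sialic acid from glycoproteins and glycolipids, showed by far the greatest change of the 50 genes. NEU1 (ENSG00000204386, GENCODE 29 on GRCh38: chromosome 6, 31857659 to 31862906, minus strand) measured 90.03, 88.7 and 87.3 FPKM in Hep3B-Con and 22.3, 21.95 and 22.03 FPKM in Hep3B-KD. The 3 libraries of each group lay close together and the groups were far apart. The fall was 3.998-fold (log2 fold change -1.999, standard error 0.0211, adjusted p = 3.82e-08), and only 0.661% of all genes tested had a fold change as low or lower. In Hep3B-Con NEU1 alone provided 38.8% ± 0.502 (SD, n = 3) of the summed FPKM of the 14 glycosidases and sulfatases, and in Hep3B-KD it provided 12.1% ± 0.118. The sum of the other 13 went the other way, from 139.9 ± 3.08 to 161 ± 1.40 FPKM (SD, n = 3).

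NEU1 works in a complex with cathepsin A (CTSA), a carboxypeptidase that protects its partners from degradation, and with beta-galactosidase (GLB1). CTSA measured 28.1, 28.1 and 27.6 FPKM in Hep3B-Con and 37.3, 36.2 and 39.7 FPKM in Hep3B-KD. It was higher in all 3 Hep3B-KD libraries (log2 fold change 0.43, standard error 0.0373, adjusted p = 8.60e-05). GLB1 measured 23.3, 23.2 and 23.95 FPKM in Hep3B-Con and 26.005, 25.8 and 25.9 FPKM in Hep3B-KD, with no overlap between the groups (log2 fold change 0.14, standard error 0.0242, adjusted p = 0.00222), but its difference was close to the shift of all genes, and after centring it was 0.04 (adjusted p = 0.217). Of the exon bases of CTSA 17.7% are shared with NEURL2 on the opposite strand, which was at 0.489 FPKM. The levels of the partners relative to each other differed between the groups. The FPKM ratio of CTSA to NEU1 was 0.312 to 0.317 in Hep3B-Con and 1.65 to 1.80 in Hep3B-KD, and that of NEU1 to GLB1 was 3.64 to 3.87 and 0.850 to 0.858. SLC17A5, which encodes sialin, the exporter of free sialic acid from the lysosome, was no member and was looked up after its values were seen. It measured 21.8, 23.2 and 22.7 FPKM in Hep3B-Con and 12.9, 12.6 and 12.4 FPKM in Hep3B-KD. Its Hep3B-KD values were all lower (log2 fold change -0.83, standard error 0.0344, adjusted p = 3.99e-06).

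**Figure D2:**
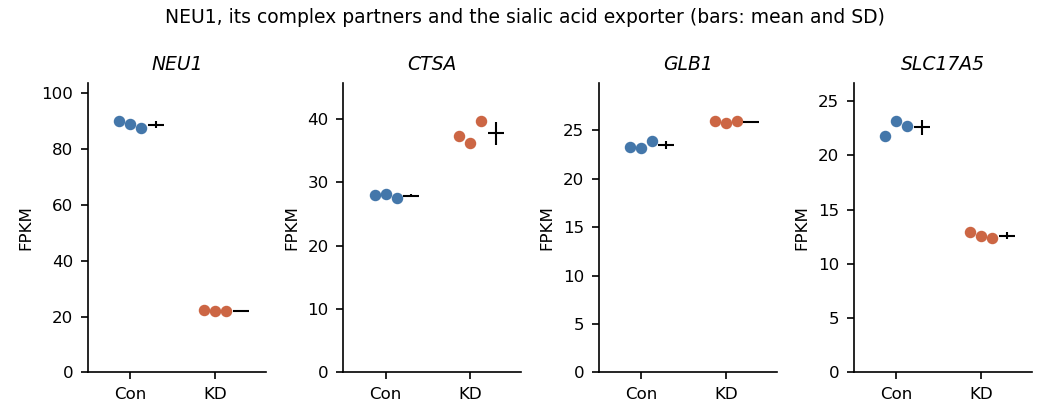
FPKM of NEU1, of its complex partners CTSA and GLB1 and of the sialic acid exporter SLC17A5 in each library (y axis, starting at 0; groups on the x axis), with the mean and SD beside the 3 points of a group. NEU1 fell from a mean of 88.7 to 22.1 FPKM and SLC17A5 from 22.6 to 12.6 FPKM, while CTSA rose from 27.9 to 37.7 FPKM and GLB1 from 23.5 to 25.9 FPKM.

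The 3' UTRs were searched for the letters that pair with the seed of the hairpin, and that of NEU1 is shown because it held them more than once. The study's list of hairpins gives 1 target for DAGLA, and the guide strand was taken as its reverse complement. In the lines below, capitals mark bases 2 to 8 of the guide (its seed) and, in the 3' UTR, the letters that pair with them.
hairpin guide strand: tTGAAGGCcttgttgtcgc
NEU1 3' UTR, bases 24 to 53: ttctGCCTTCAggactctGCCTTCAggaac
The NEU1 stretch lies at chr6:31859666-31859695 (GRCh38, minus strand) in the 667-base 3' UTR of ENST00000375631.4. The match GCCTTCA occurs there at 2 places, whose first letters are 14 bases apart. Whether the hairpin contributed to the fall of NEU1 was not tested.

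Over all lysosomal genes the match was not frequent. It was found in the longest 3' UTR of 4 of the 49 genes with one of at least 50 bases (8.16%), compared with 14.5% of all genes tested and 39.2% of the genes that were lower by at least 2-fold. The 4 genes were NEU1, the sulfatase IDS, the protease CTSC and the transcription factor TFEB. Their windows are shown to set the single matches beside the paired match of NEU1, with the match in capitals.
IDS: gtcagttgttGCCTTCAcatcaccaat
CTSC: ccaataataaGCCTTCAataaatactt
TFEB: gtgggaagagGCCTTCAgcccctctcc
These windows lie at chrX:149477799-149477825, chr11:88320838-88320864 and chr6:41684359-41684385 of GRCh38, all on the minus strand. The CTSC match starts at base 5579 of the 5622-base 3' UTR of ENST00000524463.5. The CTSC gene runs from 88293592 to 88337787 on the minus strand, so this match lies well before its 3' end. Whether other CTSC transcripts hold the match in their 3' UTR was not looked up. NEU1 (log2 fold change -1.999), IDS (-0.68) and CTSC (-0.19) fell. TFEB had a log2 fold change of -0.08 that did not pass (adjusted p = 0.243). The median log2 fold change was -0.43 over these 4 genes, NEU1 included, and 0.23 in the 45 genes without the match. Over all genes tested it was -0.04 in the 1626 genes with the match and 0.11 in those without it. A match is a run of letters and says nothing of whether the site is used.

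The remaining glycosidases and sulfatases moved in both directions. Of the 14 genes of this class, 7 rose, 4 fell and 3 did not pass, and the median log2 fold change was 0.15. After centring 3 rose and 5 fell. The counts of this and the other classes are to be read against 36.1% higher and 23.8% lower over all genes. After centring these shares were 28.6% and 30.3%. MANBA (ENSG00000109323; chromosome 4, 102630770 to 102760994, minus strand), the beta-mannosidase that removes the last mannose in glycoprotein breakdown, had the largest rise of the 50 genes. It measured 3.29, 3.43 and 3.43 FPKM in Hep3B-Con and 6.08, 5.87 and 5.89 FPKM in Hep3B-KD, a 1.74-fold difference with well separated groups (log2 fold change 0.80, standard error 0.0456, adjusted p = 1.43e-05). GAA, the acid alpha-glucosidase that degrades glycogen in the lysosome, measured 21.4, 19.6 and 20.9 FPKM in Hep3B-Con and 28.7, 27.3 and 27.8 FPKM in Hep3B-KD. All Hep3B-KD values of GAA were higher (log2 fold change 0.44, standard error 0.0403, adjusted p = 1.17e-04). GUSB, the beta-glucuronidase, measured 31.2, 30.4 and 31.6 FPKM and then 39.5, 40.97 and 40.6 FPKM, again without overlap (log2 fold change 0.38, standard error 0.0263, adjusted p = 3.36e-05). Reads of GUSB may be shared with its annotated pseudogenes, which reached at most 4.16 FPKM.

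The falls in this class included ARSB and IDS, which degrade glycosaminoglycans, but not all such enzymes fell. IDUA and SGSH passed as higher, though not after centring, and NAGLU did not pass. ARSB, the arylsulfatase that acts on dermatan and chondroitin sulfate, measured 4.14, 3.82 and 3.79 FPKM in Hep3B-Con and 2.52, 2.49 and 2.77 FPKM in Hep3B-KD. Every Hep3B-KD library was below every Hep3B-Con library, 1.49-fold on average (log2 fold change -0.58, standard error 0.0689, adjusted p = 4.03e-04). IDS, the iduronate sulfatase of heparan and dermatan sulfate breakdown, measured 1.69, 1.87 and 1.62 FPKM in Hep3B-Con and 0.882, 1.07 and 1.19 FPKM in Hep3B-KD, with no overlap (log2 fold change -0.68, standard error 0.136, adjusted p = 0.00484). The value of IDS is uncertain, because it was low (130 to 302 reads a library) and its pseudogene IDSP1 was listed at 0 to 1.07 FPKM in single libraries. IDS also shares 16.5% of its exon bases with AC244197.3 on the same strand, which was at 0.0458 FPKM. GLA, the alpha-galactosidase of globotriaosylceramide breakdown, measured 14.2, 12.6 and 12.02 FPKM in Hep3B-Con and 11.1, 10.6 and 10.1 FPKM in Hep3B-KD. It was lower in all 3 Hep3B-KD libraries (log2 fold change -0.28, standard error 0.0689, adjusted p = 0.0116).

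Other enzymes of this class changed little or did not pass. IDUA, the iduronidase that acts after IDS, measured 1.64, 1.52 and 1.32 FPKM in Hep3B-Con and 1.69, 2.304 and 1.99 FPKM in Hep3B-KD. It was higher with an adjusted p of 0.0488, a call lost in 12 of the 16 alternatives, at 88 to 148 reads a library, and it shares 13.4% of its exon bases with SLC26A1 on the opposite strand, which was at 11.2 FPKM. The strand setting of the counting was not given in the sources used here, so reads of the pair cannot be told apart. SGSH (heparan N-sulfatase, 0.16) and MAN2B1 (lysosomal alpha-mannosidase, 0.15) had log2 fold changes that passed the test but lay near the median of all genes. Neither of these passed after centring (adjusted p = 0.371 and 0.311). NAGLU, a glucosaminidase of heparan sulfate breakdown, and ARSA, which desulfates sulfatide, had log2 fold changes of 0.10 and -0.10 that did not pass. HEXA, the alpha subunit of hexosaminidase A, had the lowest FPKM of the 50 genes in Hep3B-Con, from 146 to 218 reads a library over 12611 exon bases. Of these bases 10.1% are shared with AC009690.2 on the opposite strand, which was at 0.0386 FPKM. HEXA measured 0.808, 0.666 and 0.834 FPKM in Hep3B-Con and 1.09, 1.04 and 1.01 FPKM in Hep3B-KD. Its groups did not overlap, yet its adjusted p was 0.0526.

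Among the 11 proteases, 6 rose, 2 fell and 3 did not pass, with a median log2 fold change of 0.21; after centring 5 rose and 3 fell. The rises were led by CTSF, CTSD and CTSL. CTSD (ENSG00000117984; chromosome 11, 1752752 to 1764573, minus strand), the aspartic protease cathepsin D, measured 29.96, 28.5 and 30.02 FPKM in Hep3B-Con and 44.2, 46.7 and 47.8 FPKM in Hep3B-KD. It was 1.57-fold higher with separate groups (log2 fold change 0.65, standard error 0.0369, adjusted p = 1.41e-05), and moved from rank 11 to rank 7 in the order of levels. CTSD shares 41.7% of its exon bases with AC068580.4 on the same strand (0.0211 FPKM) and 15.8% with AC068580.3 on the opposite strand (0.539 FPKM). How reads on shared bases were counted is not known, so the level of CTSD is uncertain. CTSL, a broadly acting cysteine protease, measured 6.78, 6.27 and 6.83 FPKM in Hep3B-Con and 10.3, 9.37 and 10.95 FPKM in Hep3B-KD. All 3 Hep3B-KD values were above the Hep3B-Con values (log2 fold change 0.61, standard error 0.0667, adjusted p = 2.60e-04). CTSF, another cysteine cathepsin, was far lower in level and measured 2.44, 2.03 and 2.26 FPKM in Hep3B-Con and 3.13, 3.91 and 4.58 FPKM in Hep3B-KD. Its groups did not overlap, but the Hep3B-KD libraries were spread widely (log2 fold change 0.75, standard error 0.144, adjusted p = 0.00376).

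Cathepsin B and the tripeptidyl peptidase rose less. CTSB, which acts both as an endopeptidase and by removing dipeptides from the carboxyl end of proteins, measured 18.3, 18.9 and 18.6 FPKM in Hep3B-Con and 21.8, 21.3 and 23.1 FPKM in Hep3B-KD, with all Hep3B-KD libraries higher (log2 fold change 0.24, standard error 0.0368, adjusted p = 0.00135). TPP1, which cuts tripeptides from protein ends, rose by 0.21 on the log2 scale (adjusted p = 0.0124) and by 0.10 after centring (adjusted p = 0.131). The falls were small. CTSC, the dipeptidyl peptidase that activates granule proteases of immune cells, measured 24.9, 25.1 and 25.3 FPKM in Hep3B-Con and 22.6, 22.03 and 21.3 FPKM in Hep3B-KD, every Hep3B-KD value being lower (log2 fold change -0.19, standard error 0.0297, adjusted p = 0.00139). CTSZ, a carboxypeptidase and the most abundant of the proteases, measured 92.95, 90.6 and 92.1 FPKM in Hep3B-Con and 84.9, 85.4 and 85.1 FPKM in Hep3B-KD. Its groups were separate (log2 fold change -0.11, standard error 0.0172, adjusted p = 0.00145), but with quantile normalization its log2 fold change turned to 0.04 (adjusted p = 0.0793). CTSH, an aminopeptidase, and CTSO and CTSS, both cysteine proteases, did not pass, with log2 fold changes of 0.01, -0.30 and -0.01. CTSS, typical of antigen-presenting cells, had only 39 to 70 reads a library.

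The lipid hydrolases and luminal cofactors had the highest median of the 6 classes, 0.35, and it was 0.25 after centring. Of the 9 genes 7 rose and 2 fell, and after centring 6 rose and 2 fell. Over all genes tested 36.1% were higher and 23.8% lower, and after centring 28.6% and 30.3%. The class also held NPC1, which is a membrane protein. GM2A (ENSG00000196743; chromosome 5, 151212150 to 151270440, plus strand), the activator protein that presents ganglioside GM2 to hexosaminidase A, measured 4.17, 4.15 and 4.25 FPKM in Hep3B-Con and 6.83, 7.31 and 7.72 FPKM in Hep3B-KD. This was a 1.72-fold rise without overlap (log2 fold change 0.78, standard error 0.0549, adjusted p = 3.40e-05). SMPD1 (ENSG00000166311; chromosome 11, 6390431 to 6394998, plus strand), the acid sphingomyelinase that forms ceramide, measured 19.7, 20.9 and 20.9 FPKM in Hep3B-Con and 33.2, 30.5 and 31.3 FPKM in Hep3B-KD. All 3 Hep3B-KD libraries were higher (log2 fold change 0.62, standard error 0.0419, adjusted p = 2.82e-05). ASAH1, the acid ceramidase that consumes this ceramide, went the other way and measured 6.41, 6.11 and 6.47 FPKM in Hep3B-Con and 5.88, 5.83 and 5.54 FPKM in Hep3B-KD. Its difference was small (log2 fold change -0.14, standard error 0.0457, adjusted p = 0.0387) and did not pass in 8 of the 16 alternatives. After centring its fall was larger (log2 fold change -0.24, adjusted p = 0.00368).

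PSAP, the precursor of the saposins that help sphingolipid hydrolases reach their substrates, was the most abundant of the 50 genes in both groups. It measured 239.5, 246 and 246 FPKM in Hep3B-Con and 312, 308 and 314 FPKM in Hep3B-KD, and its 13289 to 16882 reads a library gave a small error (log2 fold change 0.35, standard error 0.0171, adjusted p = 7.68e-06). The Hep3B-KD values were all well above the Hep3B-Con values. GRN, the progranulin that binds prosaposin and is cut into granulins in the lysosome, measured 58.1, 59.1 and 56.03 FPKM in Hep3B-Con and 78.3, 80.6 and 82.7 FPKM in Hep3B-KD, without overlap (log2 fold change 0.48, standard error 0.0297, adjusted p = 1.94e-05). LIPA, the acid lipase that hydrolyses cholesteryl esters and triglycerides of lipoproteins, measured 5.11, 4.82 and 5.79 FPKM in Hep3B-Con and 7.05, 6.75 and 6.62 FPKM in Hep3B-KD. It was higher in each Hep3B-KD library (log2 fold change 0.37, standard error 0.0729, adjusted p = 0.00408). NPC1, the membrane protein that passes the freed cholesterol out of the lysosome, measured 8.51, 8.61 and 8.45 FPKM in Hep3B-Con and 10.1, 10.4 and 10.7 FPKM in Hep3B-KD, again with separate groups (log2 fold change 0.29, standard error 0.0353, adjusted p = 4.69e-04). NPC2, which hands cholesterol to NPC1, rose by 0.23 on the log2 scale (adjusted p = 0.0158), which after centring was 0.13 (adjusted p = 0.12). PPT1, which removes palmitate from proteins, fell from 28.2 ± 0.290 to 25.3 ± 0.377 FPKM (SD, n = 3; adjusted p = 0.00133). It shares 23.4% of its exon bases with CAP1 on the opposite strand, which was at 28.6 FPKM.

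**Figure D3:**
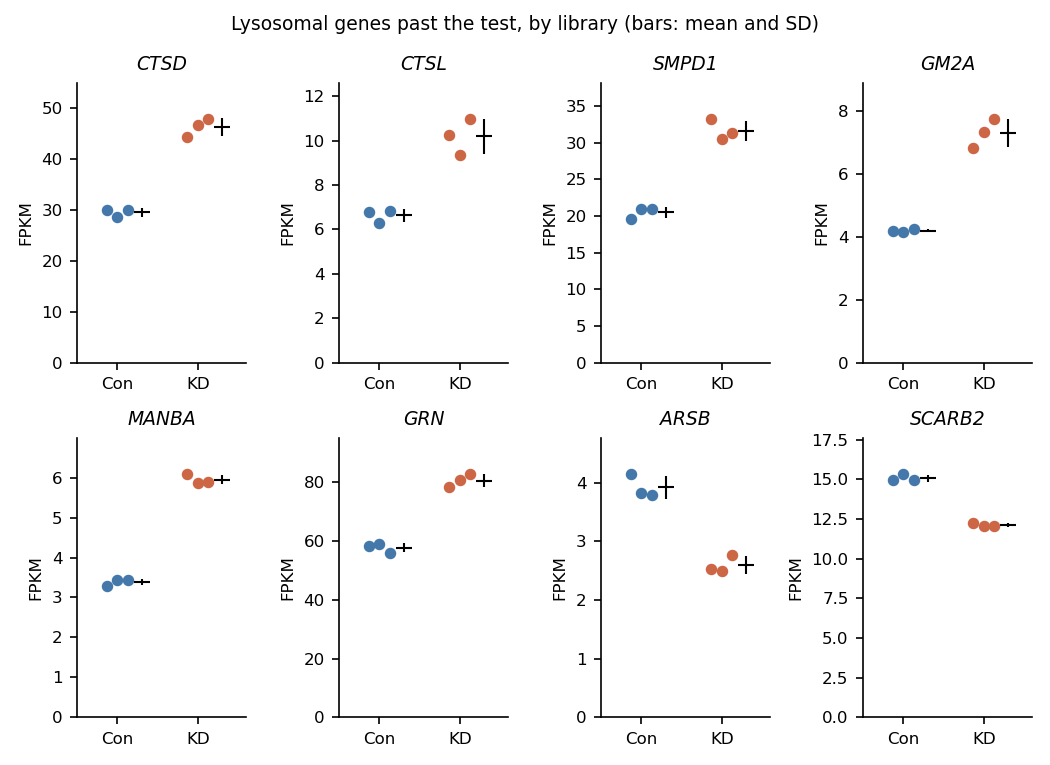
FPKM of 8 lysosomal genes that passed the test, by library (y axis, each panel from 0; groups on the x axis), with the mean and SD beside the 3 points of a group. CTSD, CTSL, SMPD1, GM2A, MANBA and GRN lie higher in all 3 Hep3B-KD libraries, and ARSB and SCARB2 lie lower.

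Of the 5 genes classed as membrane proteins 2 rose and 3 fell, with a median log2 fold change of -0.18. After centring 0 rose and 3 fell, and the median was -0.28. These counts depend on the grouping. NPC1, also a membrane protein, was counted with the lipid hydrolases and cofactors and rose by 0.29 (after centring 0.18, adjusted p = 0.00421). LAMP2 and LAMP1, the heavily glycosylated proteins that make up much of the lysosomal membrane, did not move together. LAMP2 (ENSG00000005893; chromosome X, 120427827 to 120469365, minus strand), one form of which also serves chaperone-mediated autophagy, measured 29.2, 30.6 and 30.3 FPKM in Hep3B-Con and 24.6, 26.2 and 23.6 FPKM in Hep3B-KD. It was lower in all 3 Hep3B-KD libraries (log2 fold change -0.28, standard error 0.0436, adjusted p = 0.00153). LAMP1 measured 134, 134 and 136 FPKM in Hep3B-Con and 145, 145 and 145 FPKM in Hep3B-KD, with the Hep3B-KD libraries very close to each other. Its small rise passed (log2 fold change 0.10, standard error 0.0147, adjusted p = 9.92e-04), but it was close to the shift of all genes and was -0.0011 after centring (adjusted p = 0.954). SCARB2, the receptor that carries glucocerebrosidase to the lysosome, measured 14.9, 15.3 and 14.9 FPKM in Hep3B-Con and 12.3, 12.1 and 12.1 FPKM in Hep3B-KD. Its groups did not overlap (log2 fold change -0.31, standard error 0.0280, adjusted p = 1.07e-04). CD63, a tetraspanin of late endosomes, lysosomes and exosomes, rose by 0.19 (adjusted p = 0.00207), a log2 fold change which after centring was 0.08 (adjusted p = 0.0629). MCOLN1, the calcium channel TRPML1, measured 11.2, 9.76 and 10.5 FPKM in Hep3B-Con and 9.32, 9.48 and 9.02 FPKM in Hep3B-KD. These values came close to each other (log2 fold change -0.18, standard error 0.0566, adjusted p = 0.0333), and the call was lost in 9 of the 16 alternatives. After centring the fall of MCOLN1 was larger (log2 fold change -0.28, adjusted p = 0.00496).

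The V-ATPase consists of a cytosolic V1 part that hydrolyses ATP and a membrane-embedded V0 part through which protons pass. Of its 8 genes described here 6 rose, 1 fell and 1 did not pass, with a median log2 fold change of 0.24 and of 0.14 after centring. After centring 5 rose and 2 fell. Over all genes tested 36.1% were higher and 23.8% lower, and after centring 28.6% and 30.3%. All 4 V1 subunits among these 8 genes rose. ATP6V1A (ENSG00000114573; chromosome 3, 113747019 to 113812056, plus strand), the catalytic subunit, measured 25.4, 26.4 and 25.5 FPKM in Hep3B-Con and 36.1, 35.5 and 35.5 FPKM in Hep3B-KD. The groups were separate by far more than their spread (log2 fold change 0.47, standard error 0.0247, adjusted p = 1.00e-05). ATP6V1B2, which alternates with ATP6V1A in the hydrolysing ring, measured 10.97, 11.4 and 10.9 FPKM in Hep3B-Con and 13.3, 12.8 and 12.9 FPKM in Hep3B-KD, all Hep3B-KD values being higher (log2 fold change 0.23, standard error 0.0342, adjusted p = 0.00126). ATP6V1C1, a stalk subunit that takes part in joining V1 to V0, measured 18.3, 19.1 and 18.1 FPKM in Hep3B-Con and 22.6, 24.3 and 23.7 FPKM in Hep3B-KD (log2 fold change 0.34, standard error 0.0374, adjusted p = 2.58e-04). ATP6V1H, a regulatory subunit, rose by 0.25 on the log2 scale (adjusted p = 6.20e-04). Each of these 4 also passed with the libraries centred on their median.

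Of the 2 V0 subunits 1 fell and 1 did not pass. ATP6V0D1 (ENSG00000159720; chromosome 16, 67438014 to 67481237, minus strand), which couples the stalk of V1 to the rotor of V0, measured 9.98, 9.25 and 9.58 FPKM in Hep3B-Con and 7.67, 8.02 and 7.96 FPKM in Hep3B-KD. It was lower in all 3 Hep3B-KD libraries (log2 fold change -0.28, standard error 0.0419, adjusted p = 0.00117). ATP6V0E1, a small V0 subunit, measured 49.2, 49.8 and 47.3 FPKM in Hep3B-Con and 49.96, 47.3 and 46.5 FPKM in Hep3B-KD, with overlapping groups (adjusted p = 0.532). Of the accessory proteins, ATP6AP1, which helps to assemble the pump, measured 21.6, 20.9 and 21.4 FPKM in Hep3B-Con and 26.2, 29.7 and 27.3 FPKM in Hep3B-KD and was higher in each Hep3B-KD library (log2 fold change 0.38, standard error 0.0477, adjusted p = 5.19e-04). ATP6AP2, also known as the prorenin receptor, rose by 0.23 on the log2 scale (adjusted p = 0.00823) and by 0.13 after centring (adjusted p = 0.0763). Of 17 further V-ATPase subunits 10 were expressed above the filter, of which 4 rose and 2 fell, with a median of 0.11; the counts were the same after centring. Among those that passed, the largest rise was that of ATP6V0E2, another small V0 subunit, at 0.45 (adjusted p = 7.82e-04), and the largest fall that of ATP6V1E1, a V1 stalk subunit, at -0.39 (adjusted p = 7.14e-05). Among these 18 genes, subunits of V1 and of V0 were found both with rises and with falls.

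**Figure D4:**
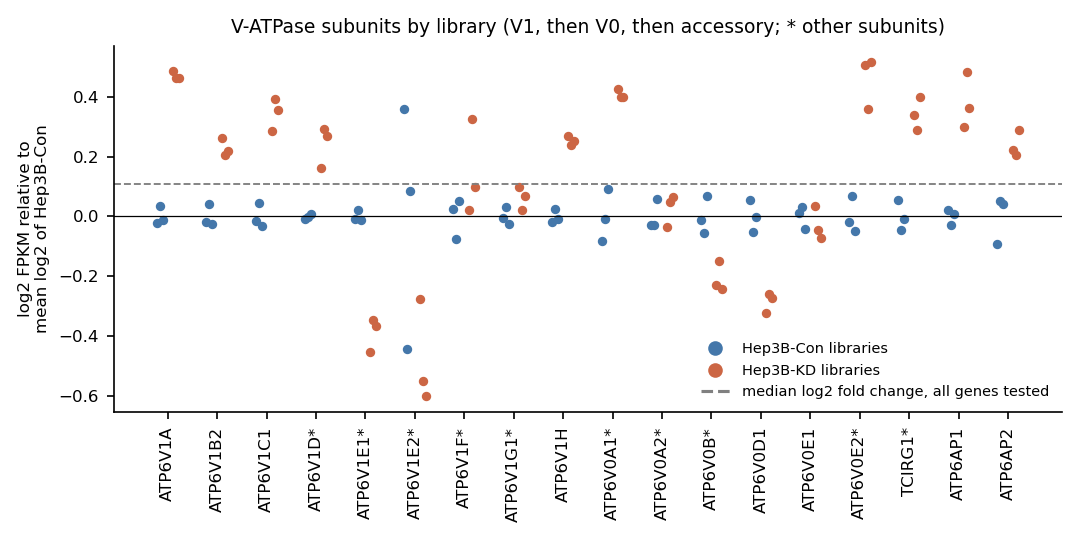
Log2 FPKM of 18 V-ATPase genes in each library, relative to the mean log2 FPKM of the Hep3B-Con libraries (y axis), ordered by V1, V0 and accessory proteins (x axis); a star marks the 10 genes outside the 50. The dashed line marks 0.11, the median over the genes tested. The Hep3B-KD points of ATP6V1A, ATP6V1C1, ATP6V1B2 and ATP6V1H lie above the line, and those of ATP6V0D1, ATP6V0B and ATP6V1E1 lie below 0.

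Of the 3 genes of regulation and sorting 1 rose and 2 did not pass. TFEB, a transcription factor that raises lysosomal genes when nutrients are scarce, measured 7.02, 6.83 and 7.56 FPKM in Hep3B-Con and 6.83, 6.92 and 6.54 FPKM in Hep3B-KD. The groups overlapped (adjusted p = 0.243), while after centring the log2 fold change was -0.18 (adjusted p = 0.0212). Its relative TFE3 measured 9.91, 8.83 and 9.79 FPKM in Hep3B-Con and 9.19, 9.57 and 10.8 FPKM in Hep3B-KD, with overlap and a direction that turned after centring (0.05 and -0.06). M6PR, the smaller of the mannose 6-phosphate receptors, measured 31.4, 31.3 and 29.4 FPKM in Hep3B-Con and 33.2, 33.5 and 32.2 FPKM in Hep3B-KD. Its difference of 0.10 (adjusted p = 0.0361) was close to the shift of all genes, and its sign turned after centring. M6PR shares 29.3% of its exon bases with PHC1 on the opposite strand, which was at 2.46 FPKM. These are RNA levels, and TFEB and TFE3 are mainly regulated by where the protein resides in the cell.

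The binding motif of these factors was looked up in the promoters, taken as 250 bases before to 50 bases after the gene start (RefSeq, GRCh38.p14), which were found for 34 of the 50 genes. The palindrome CACGTG was present in 9 of the 34 (26.5%), compared with 7.43% of all promoters and 10.5% of those of genes tested. The longer TCACGTGA was present in 5 (14.7%, compared with 1.04% of all promoters and 1.97% of those of genes tested), and CACGTG with GT before and AC after it in 2, GAA and MCOLN1 (5.88%, compared with 0.381% and 0.812%). Each of these motifs reads the same on both strands, and each longer one contains the shorter. The windows below are shown because they belong to genes that rose and to genes that fell; capitals mark the 8-letter motif or, where it is absent, CACGTG.
GAA: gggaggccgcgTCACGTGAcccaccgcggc
MCOLN1: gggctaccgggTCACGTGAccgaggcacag
ATP6V0D1: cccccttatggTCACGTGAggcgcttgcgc
LAMP1: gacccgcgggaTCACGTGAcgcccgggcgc
CTSD: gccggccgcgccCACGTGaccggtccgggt
NEU1: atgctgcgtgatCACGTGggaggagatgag
They lie at chr17:80101493-80101522 (plus strand), chr19:7522598-7522627 (plus strand), chr16:67481199-67481228 (minus strand), chr13:113297199-113297228 (plus strand), chr11:1763957-1763986 (minus strand) and chr6:31862930-31862959 (minus strand), in the same order.

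Genes with the motif moved in both directions. CTSA, CTSD, CTSF, GAA, CD63 and LAMP1 rose, with LAMP1 turning after centring as described, while NEU1, ATP6V0D1 and MCOLN1 fell. Their median log2 fold change was 0.19. In the 25 genes whose promoter did not hold the 6 letters, 15 rose, 7 fell and 3 did not pass, with a median of 0.15. LAMP1, with 6 copies, had the most. A match is a description of the sequence and not a bound site.

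Further genes of the pathway moved in both directions as well. Their counts are to be read against the 36.1% of all genes that were higher and the 23.8% that were lower, and against 28.6% and 30.3% after centring. Of 41 other lysosomal hydrolases 33 were expressed above the filter, 16 rose and 6 fell, and the median log2 fold change was 0.14. After centring 10 of them rose and 8 fell. CTSK, a collagen-degrading cathepsin best known from osteoclasts, measured 1.36, 0.579 and 1.05 FPKM in Hep3B-Con and 3.34, 2.90 and 3.45 FPKM in Hep3B-KD (log2 fold change 1.67, standard error 0.271, adjusted p = 0.00176). The size of this rise is uncertain, because CTSK had only 19 to 108 reads a library. Its coefficient of variation in Hep3B-Con was 39.4%. HYAL1, a hyaluronidase, measured 4.80, 4.76 and 5.16 FPKM in Hep3B-Con and 2.84, 2.72 and 2.50 FPKM in Hep3B-KD (log2 fold change -0.85, standard error 0.0674, adjusted p = 6.02e-05). Neither gene had overlapping groups. Of 40 other lysosomal membrane proteins 33 were expressed, 14 rose and 10 fell, with a median of 0.10; after centring 11 rose and 11 fell. SLC29A3, a nucleoside transporter of the lysosome, measured 7.70, 7.21 and 7.35 FPKM in Hep3B-Con and 3.002, 2.61 and 3.10 FPKM in Hep3B-KD (log2 fold change -1.33, standard error 0.0736, adjusted p = 1.26e-05). MFSD8, the CLN7 protein, measured 1.59, 1.47 and 1.41 FPKM in Hep3B-Con and 3.10, 3.05 and 3.24 FPKM in Hep3B-KD (log2 fold change 1.03, standard error 0.0769, adjusted p = 4.55e-05). SLC29A3 was lower and MFSD8 higher in each Hep3B-KD library.

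Of 29 genes of mannose 6-phosphate tagging and sorting, all expressed, 20 rose and 2 fell, with a median of 0.21. After centring 14 rose and 6 fell, compared with 28.6% and 30.3% of all genes. SORT1, the sorting receptor sortilin, which in liver cells also handles apolipoprotein B, measured 23.7, 24.7 and 24.9 FPKM in Hep3B-Con and 43.9, 44.7 and 45.1 FPKM in Hep3B-KD, a 1.82-fold difference with separate groups (log2 fold change 0.87, standard error 0.0273, adjusted p = 1.40e-06). RAB7A, the GTPase that directs late endosomes to fuse with lysosomes, measured 146, 145 and 150.4 FPKM in Hep3B-Con and 28.6, 31.2 and 32.1 FPKM in Hep3B-KD. It fell 4.80-fold (log2 fold change -2.26, standard error 0.0446, adjusted p = 2.52e-07), further than any of the 50 genes. Its 3' UTR also holds the letters that pair with the seed of the hairpin, from base 54, and is shown for this reason with the match in capitals.
RAB7A: acacacgtagGCCTTCAacacaattcc
The window lies at chr3:128813466-128813492 of GRCh38 on the plus strand and shares a run of 10 letters with the hairpin's target. The match was not limited to genes that fell. Of 12 genes with it in the 5 further lists, 7 fell, 2 rose and 3 did not pass. Over all genes tested 23.8% were lower and 36.1% higher. Besides RAB7A, those that fell were TMEM192, with 2 matches (-0.82), SLC36A1 (-0.52), LAPTM4B (-0.40), ATP6V1E1 (-0.39), SUMF1 (-0.33) and HGS (-0.15). The genes that rose were the chloride transporter CLCN6 (log2 fold change 0.50) and the mannosidase MAN2B2 (0.35), and those that did not pass were PLA2G15, with 2 matches (-0.13), GBA2 (0.04) and AP1M1 (-0.07). Among the hepatocyte markers TF held 3 matches, at bases 10833, 11126 and 17600 of an annotated 3' UTR of 18020 bases, and rose (0.95). Whether these cells use that long 3' UTR was not tested. HNF4A held 2 matches, at bases 258 and 732 of its 3' UTR, and fell (-0.35). The match at base 732 lies in a run of 11 letters shared with the target. In the list of autophagy genes described last, SNAP29 held 2 matches and fell (-0.84). Whether the hairpin contributed to any of these changes was not tested.

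Of 22 genes of MiT/TFE factors and nutrient sensing at the lysosome 20 were expressed, 10 rose and 4 fell, with a median of 0.15; after centring 5 rose and 4 fell. FNIP2, a partner of folliculin in the control of TFEB and TFE3, measured 5.66, 5.35 and 5.43 FPKM in Hep3B-Con and 13.3, 13.1 and 12.99 FPKM in Hep3B-KD. All Hep3B-KD values were more than double, a 2.37-fold rise (log2 fold change 1.25, standard error 0.0366, adjusted p = 1.07e-06). BHLHE40, a repressor that binds the same palindrome CACGTG, measured 20.7, 22.3 and 21.8 FPKM in Hep3B-Con and 6.01, 6.82 and 7.43 FPKM in Hep3B-KD, and fell 3.17-fold without overlap (log2 fold change -1.67, standard error 0.0769, adjusted p = 6.08e-06).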

How the data were processed

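Hep3B-Con and Hep3B-KD libraries (3 each) were grouped by their GEO titles. Per the labels and methods, RNA was made into Illumina libraries, and the submitters' processing notes name Bowtie2 2.0.6, TopHat2 2.0.12 and GRCh37. The counting program and its strand setting are not given in the sources used here. The authors deposited FPKM values for 29908 Ensembl genes, whose identifiers were all found in GENCODE 29 (GRCh38), from which coordinates were taken. FPKM times exon length and library total gave whole reads (within 0.01) for 100% of values. The 50 genes had 39 to 16882 reads a library.

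The 14221 genes averaging 0.5 FPKM or more over the 6 libraries were tested on log2(FPKM + 0.1) with limma 3.58.1 (lmFit, eBayes with trend) in R 4.3.3, without a block, and tested on simulated reads, where the share of changed genes recovered fell as the spread between libraries grew. Benjamini-Hochberg adjustment ran over all genes tested, with a threshold of 0.05. The members and lists were chosen with earlier results of these data known, so no list was tested. Every member could be named; of each other list, the genes past the test with a fold of at least 2 or, failing that, the largest rise and fall; and DAGLA. SLC17A5 and further genes with a seed match fell outside this rule and were chosen after their values were seen. Alternatives were pseudocounts of 1 and 0.01, no filter or 1 FPKM, 3 other scalings, no trend, voom on recovered reads with TMM factors, the replicate block and leaving out each library.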

Additional observations from a re-analysis of the deposited data

How the results depend on the processing

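Of the 41 lysosomal genes past the test, 28 kept their call and direction in all 16 alternatives, 19 higher and 9 lower. NEU1 remained the only one with a fold of at least 2 in each. With each library centred on its median 19 genes were higher, and the medians were 0.0682 over the 50 genes, -0.28 for membrane proteins, 0.10 for proteases, 0.0447 for glycosidases and sulfatases, 0.25 for lipid hydrolases and cofactors, 0.14 for the V-ATPase and -0.0556 for regulators and sorting, which turned. Of the MiT/TFE and nutrient sensing genes 9 then passed. CTSH (-0.0925), LAMP1 (-0.00114), M6PR (-0.000725) and TFE3 (-0.0556) turned as well. With voom these medians were, in the same order, 0.0678, -0.28, 0.10, 0.044, 0.25, 0.14 and -0.0551, and the same 4 genes turned (-0.0944, -0.00279, -0.00349 and -0.0551). Quantile normalization gave medians of 0.11 for glycosidases and sulfatases, 0.25 for lipid hydrolases and cofactors, 0.19 for the V-ATPase and -0.0105 for regulators and sorting, and turned ATP6V0E1 (0.0856), CTSZ (0.0371), CTSH (-0.0503) and TFE3 (-0.0105). With the same FPKM sum per library the medians were 0.20 over the 50 genes, 0.17 for glycosidases and sulfatases, 0.38 for lipid hydrolases and cofactors and 0.0745 for regulators and sorting, and CTSS turned (0.0091). A pseudocount of 1 gave 0.33 for lipid hydrolases and cofactors. The causes of these shifts were not tested.

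Leaving out each library in turn gave 26 to 27 higher and 10 to 12 lower genes. The medians ranged from 0.16 to 0.20 over the 50 genes, from -0.23 to -0.13 for membrane proteins, from 0.17 to 0.25 for proteases, from 0.13 to 0.16 for glycosidases and sulfatases, from 0.32 to 0.36 for lipid hydrolases and cofactors, from 0.23 to 0.26 for the V-ATPase and from -0.0186 to 0.10 for regulators and sorting. This last median is that of TFE3, which turned without Hep3B-Con replicate 2 (-0.00445) and without Hep3B-KD replicate 3 (-0.0186). CTSH ranged from -0.00641 without Hep3B-Con replicate 3 to 0.0373, and CTSS from -0.14 to 0.21 without Hep3B-KD replicate 2. The MiT/TFE and nutrient sensing genes past the test numbered 9 to 14, with 9 without Hep3B-Con replicate 3. HEXA and CTSS gave no value with the filter at 1 FPKM. Among the 50 genes, fewer than 100 reads in some library limited CTSS and IDUA.

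Libraries with the same replicate number did not deviate together: the correlations of their deviations from the group means were -0.0134, -0.0656 and -0.0011. With the replicate number as a block 27 lysosomal genes were higher and 10 lower, and MCOLN1, IDUA, SGSH and ASAH1 no longer passed.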

Other observations

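Autophagy, which delivers cell content to the lysosome, was read in a list of 35 genes. Of the 31 expressed above the filter 16 rose and 7 fell, with a median log2 fold change of 0.13, against 36.1% and 23.8% of all genes and a median of 0.11. The autophagosome protein MAP1LC3B (LC3B) measured 20.95, 20.6 and 20.03 FPKM in Hep3B-Con and 6.93, 8.46 and 7.10 FPKM in Hep3B-KD. It fell 2.73-fold, with every Hep3B-KD library below every Hep3B-Con library (log2 fold change -1.45, standard error 0.0763, adjusted p = 1.02e-05). RB1CC1, also called FIP200, which belongs to the kinase complex that starts autophagy, measured 2.91, 2.49 and 2.42 FPKM in Hep3B-Con and 6.46, 6.56 and 5.94 FPKM in Hep3B-KD. It rose 2.38-fold, again with separate groups (log2 fold change 1.25, standard error 0.0837, adjusted p = 2.77e-05). With the libraries centred on their median 14 of the 31 rose and 10 fell.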
